A study of Mus musculus with 64 samples.

Results

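Sertoli cells are the somatic nurse cells of the seminiferous tubule, and 9 genes that mark them were followed here: Amh, Sox9, Gata4, Wt1, Fshr, Dhh, Inhbb, Inha and Clu. They were taken by gene symbol from the gene tables, where they are 9 of 26385 genes. The study sequenced RNA of mouse testis to compare a germ cell gene, Morc1, with other genes that silence transposons in the male germline. Of its 47 RNA-Seq libraries, 27 came from whole testis and 20 from sorted germ cells, and each was made with RNA of a single mouse. All whole testis libraries were made from poly(A)-selected RNA with the TruSeq v2 kit.

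The Morc1 line carried the Morc1 tg allele, a tyrosinase transgene insertion on the FVB/N background that removes exons coding for part of the ATPase domain. Its whole testis groups were 3 Morc1 tg/tg (labelled Morc1 KO) and 3 control libraries at P10.5, the controls being 1 Morc1 +/+ and 2 Morc1 tg/+ mice. A preliminary pair of P10.5 control libraries, 1 Morc1 +/+ and 1 Morc1 tg/+, was described but kept out of the tests. At P14.5, 3 Morc1 tg/tg stood against 3 Morc1 tg/+ libraries. The Dnmt3l line was sampled at P10.5 as 3 Dnmt3l-/- (labelled DNMT3L KO), 3 heterozygous and 3 wild type libraries. The Miwi2 line was sampled at P10.5 as 2 libraries labelled Miwi2 KO and 2 labelled Miwi2 het. Sorted germ cells came from the Morc1 line, as 2 Morc1 tg/+ and 2 Morc1 tg/tg libraries at E16.5 and again at E18.5, 3 and 2 at P2.5, and 4 and 3 at P10.5. For the sorts from E16.5 to P2.5 that line had been crossed with an Oct4 reporter strain of mixed background. MORC1, DNMT3L and MIWI2 are known for silencing transposons in germ cells, whereas the 9 genes mark the somatic cells beside them. Morc1 and Dnmt3l followed the labels, and Dnmt3l fell from 0.679 ± 0.222 RPKM in its 6 controls to 0.0412 ± 0.00476 in the 3 Dnmt3l-/- libraries (SD). Piwil4, the gene of MIWI2, went against them: it was 11.1 ± 0.567 RPKM in the libraries labelled Miwi2 KO and 6.83 ± 0.254 in those labelled Miwi2 het (SD, n = 2 each). These values cover the whole gene, and the sources used here do not say which exons the Miwi2 allele removes, so they do not settle the labels.

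During fetal life SOX9, acting with GATA4 and WT1, turns the supporting cells of the gonad into Sertoli cells, and these transcription factors drive Amh. After birth Sertoli cells answer to follicle-stimulating hormone through its receptor FSHR. Sertoli cells also send out signals of their own. These are anti-Müllerian hormone (Amh), which removes the Müllerian ducts in fetal life, and desert hedgehog (Dhh), which acts on Leydig and peritubular cells. Another is inhibin B, a dimer of the chains encoded by Inha and Inhbb that holds back pituitary FSH. Clu encodes clusterin, a secreted chaperone that is among the most abundant Sertoli cell products. Amh is shut down as Sertoli cells mature, around the time when germ cells enter meiosis.

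Amh, Fshr, Dhh, Inhbb and Clu were called higher in the mutant in each of the Morc1 P10.5, Morc1 P14.5 and Dnmt3l comparisons, and the promoters of Fshr, Dhh and Inhbb, those of the 5 with a match, are shown so that a reader can see the sequence ahead of genes the results turn on. Fshr and Inhbb were called in none of these comparisons when scaled on other Sertoli genes. Entries for RefSeq promoters of build GRCm38.p6, which is not the mm9 build of the files, were matched for 4 of the 9 genes: Fshr, Dhh, Inhbb and Inha. Amh, Sox9, Gata4, Wt1 and Clu were not matched. Each sequence is written 5′ to 3′ on the gene's own strand and runs from 250 bases before to 50 bases after the start. Fshr lies at chr17:89200626-89200925 (-), Dhh at chr15:98898491-98898790 (-) and Inhbb at chr1:119422199-119422498 (-). Capitals mark a match to a searched motif.
Fshr: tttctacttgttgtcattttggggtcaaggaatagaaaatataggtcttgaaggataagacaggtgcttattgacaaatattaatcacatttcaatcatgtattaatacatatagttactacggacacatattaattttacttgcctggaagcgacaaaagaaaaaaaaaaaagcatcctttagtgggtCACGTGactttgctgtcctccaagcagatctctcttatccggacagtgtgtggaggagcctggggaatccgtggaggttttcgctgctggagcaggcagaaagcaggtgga
Dhh: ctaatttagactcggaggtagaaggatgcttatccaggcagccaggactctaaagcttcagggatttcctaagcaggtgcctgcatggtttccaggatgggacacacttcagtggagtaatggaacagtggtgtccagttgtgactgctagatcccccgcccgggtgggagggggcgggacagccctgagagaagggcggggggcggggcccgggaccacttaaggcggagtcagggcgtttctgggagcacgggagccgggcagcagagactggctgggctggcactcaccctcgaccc
Inhbb: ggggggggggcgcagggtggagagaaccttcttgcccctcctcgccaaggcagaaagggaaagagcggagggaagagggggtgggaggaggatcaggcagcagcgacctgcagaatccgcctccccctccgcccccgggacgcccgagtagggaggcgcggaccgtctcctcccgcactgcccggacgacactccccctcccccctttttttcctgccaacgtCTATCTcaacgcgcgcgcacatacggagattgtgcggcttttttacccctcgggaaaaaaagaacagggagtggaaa
Both strands were searched for GATA motifs (AGATAA or AGATAG and likewise TGATAA or TGATAG), the steroidogenic factor motif AAGGTCA, the SOX motif AACAAT and the E-box CACGTG. Fshr held an E-box CACGTG beginning 61 bases before the start, a motif found in 7.15% of all 32851 promoters of the same length. Inhbb held AGATAG on the opposite strand, printed as CTATCT, beginning 27 bases before the start, and a GATA motif was present in 29.8% of promoters. The steroidogenic factor motif was in 4.72% of promoters and the SOX motif in 10.7%. These letters were not found in the window of Dhh. The window matched for Inha holds protein-coding bases of that gene and so lay within it. The sequence ahead of Inha was therefore not searched. The matches are descriptions of sequence and not of binding.

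In mm9, the transcription factor genes lay at chr11:112643538-112649074 (Sox9, + strand), chr14:63817759-63890529 (Gata4, - strand) and chr2:104966686-105013773 (Wt1, + strand). Fshr lay at chr17:89384292-89600015 (- strand). The genes of the secreted products lay at chr10:80267993-80270393 (Amh, + strand), chr15:98723462-98728971 (Dhh, - strand), chr1:121312042-121318825 (Inhbb, - strand), chr1:75503652-75506941 (Inha, + strand) and chr14:66587320-66600385 (Clu, + strand). Amh lay 2.74 Mb from Dnmt3l on chromosome 10, and no other of the 9 genes shared a chromosome with the gene targeted in its comparison.

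Reads counted on genes ranged from 22509570 to 42137954 over the 27 whole testis libraries (median 28815956), and the 9 genes took 0.446% to 1.07% of them. Levels are given as RPKM, reads corrected for gene length and for the depth of the library, which allows levels of different genes to be set side by side. In the 3 Morc1 P10.5 controls, Clu was the second most abundant of 26385 genes, with rank 2 and 2286 ± 168 RPKM (SD). Inha followed at rank 66 (419 ± 31.4), Amh at rank 138 (238 ± 16.6) and Dhh at rank 420 (109 ± 3.39). Gata4 (102 ± 8.08), Wt1 (90.5 ± 1.84) and Inhbb (85.8 ± 1.95) lay between rank 468 and rank 602. Sox9 stood at rank 1285 (50.2 ± 3.51), and Fshr was the least abundant of the 9, at rank 4260 (18.6 ± 0.804). The lowest count of any of the 9 genes in a whole testis library was 761 reads, on Fshr at P14.5.

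**Figure D1:**
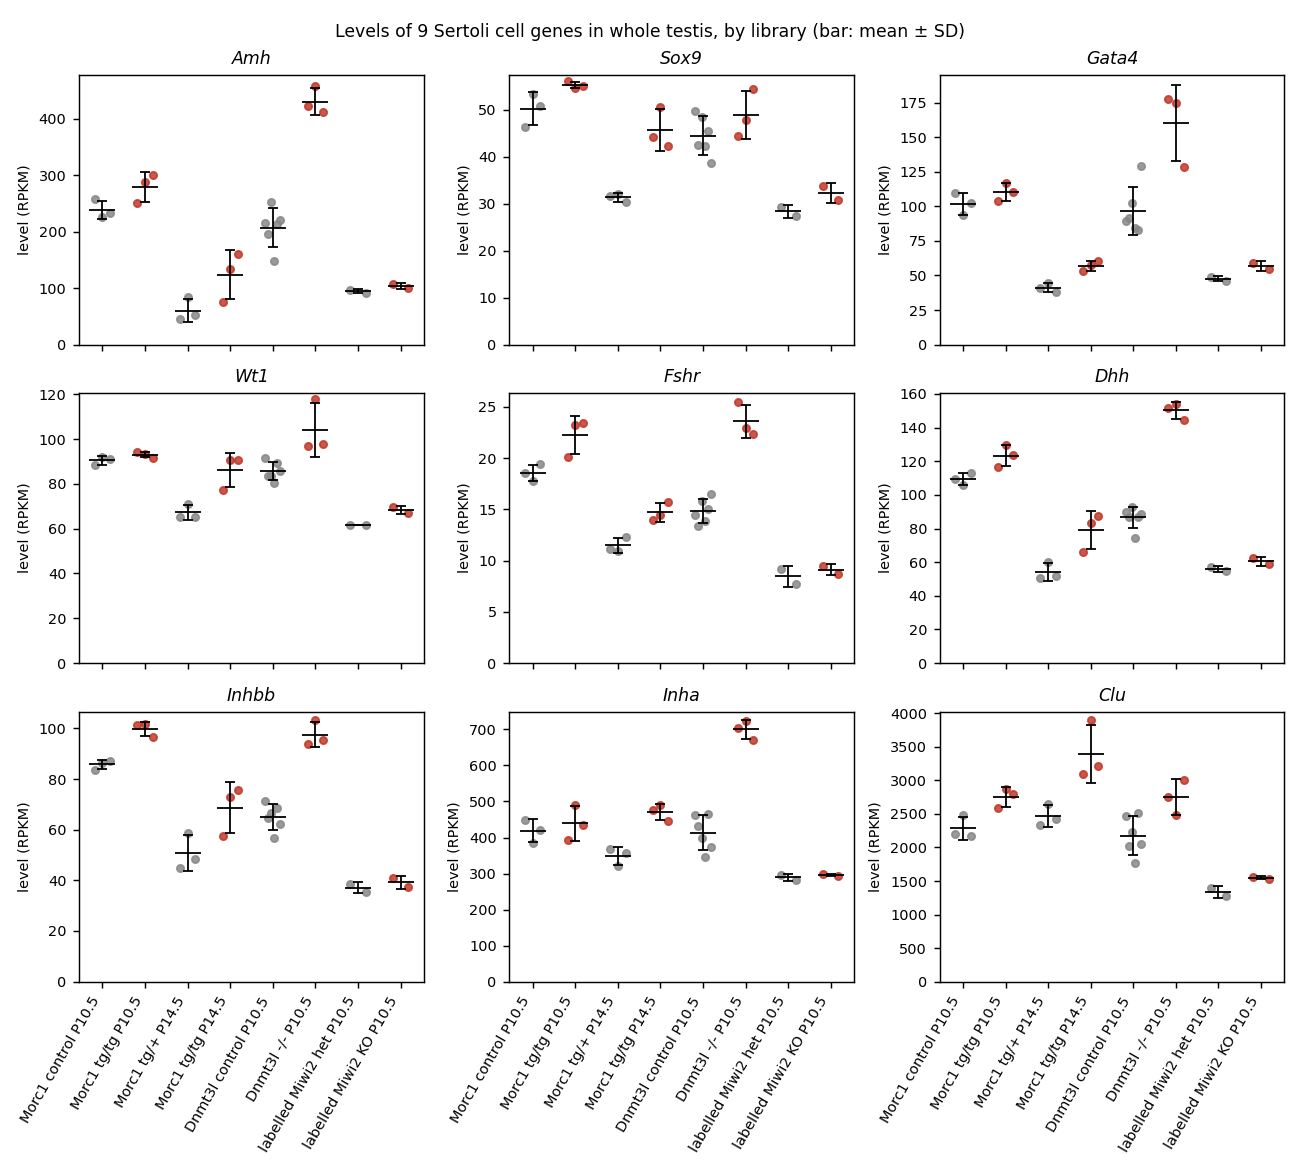
Level (RPKM, linear axis from 0) of each of the 9 genes in 25 whole testis libraries by line, genotype and age, with controls and libraries labelled het in grey, mutants and libraries labelled KO in red and bars for mean ± SD; the preliminary pair is not drawn. The mean of Amh was lowest in the P14.5 controls (60.1) and next lowest in the libraries labelled Miwi2 het (94.2), and the 3 Dnmt3l-/- libraries, at 412 to 457, were the highest.

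The genes differed in how widely they ranged over the line, genotype and age groups. Amh ranged most: its mean was 7.16 times higher in Dnmt3l-/- testis, where it was highest, than in Morc1 tg/+ testis at P14.5, where it was lowest. Gata4 spanned 3.90 times, Fshr 2.79, Dhh 2.77, Inhbb 2.70, Clu 2.55, Inha 2.42 and Sox9 2.03 times between the group with the highest and the group with the lowest mean. Wt1 was the steadiest, with a span of 1.69 times. Dnmt3l-/- testis held the highest mean of Amh, Gata4, Wt1, Fshr, Dhh and Inha. The highest mean of Inhbb was in Morc1 tg/tg at P10.5, that of Clu in Morc1 tg/tg at P14.5, and that of Sox9 in the preliminary controls. The libraries labelled Miwi2 het had the lowest mean of Sox9, Wt1, Fshr, Inhbb, Inha and Clu. The genetic background of the Dnmt3l and Miwi2 mice was not given in the sources used here, so line and background cannot be told apart.

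For Amh the order of the groups ran from Dnmt3l-/- through Morc1 tg/tg at P10.5 (279), the preliminary controls (268), the Morc1 P10.5 controls (238), the Dnmt3l controls (207), Morc1 tg/tg at P14.5 (124), the libraries labelled Miwi2 KO (104) and Miwi2 het (94.2) to Morc1 tg/+ at P14.5 (60.1 RPKM). Of the 8 neighbouring pairs in that order, 4 had library values that did not overlap. Dnmt3l-/- stood clear of the group below it. The Morc1 P10.5 controls overlapped the Dnmt3l controls.

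Morc1 tg/tg testis at P10.5 was compared with its controls to ask whether the somatic supporting cells differ when germ cells lack MORC1. Fshr, Dhh, Inhbb, Clu and Amh were 1.13 to 1.20 times higher by RPKM means, and Sox9, Gata4, Wt1 and Inha did not pass the test. That is 5 of 9 called higher, where 6.08% of the 15165 genes tested were called higher. Over the 9 genes the log2 fold change ran from 0.05 to 0.28 with a median of 0.19, beside a median of 0.01 over all genes tested. None of the 5 was called when levels were scaled on other Sertoli genes, as given further on. Adjusted p-values throughout come from edgeR's quasi-likelihood test, adjusted by the Benjamini-Hochberg method across every gene tested. In whole testis, fewer cells of a type and less RNA per cell cannot be told apart.

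Among the transcription factors, Sox9 measured 46.5 in the Morc1 +/+ control, 53.4 and 50.9 in the Morc1 tg/+ controls and 56.1, 54.7 and 55.1 RPKM in Morc1 tg/tg. All 3 mutants lay above these 3 controls, though not above the preliminary controls (60.2 and 55.0), with a log2 fold change of 0.15 ± 0.06 (SE) that missed the threshold (edgeR adjusted p = 0.0990). Gata4, at 93.8 to 110 RPKM in controls and 104 to 117 in mutants, and Wt1, at 88.4 to 91.9 and 91.6 to 94.0, overlapped between the groups. Their log2 fold changes were 0.13 ± 0.07 and 0.05 ± 0.05.

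Fshr, the FSH receptor gene, measured 18.54, 17.8 and 19.4 RPKM in the controls and 20.1, 23.3 and 23.4 in Morc1 tg/tg. The groups did not overlap, and the log2 fold change was 0.28 ± 0.07 (edgeR adjusted p = 0.0218).

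Of the secreted products, Inhbb was at 83.6, 86.5 and 87.3 RPKM in the controls and 101, 102 and 96.8 in Morc1 tg/tg. These groups did not overlap, and Inhbb had the smallest adjusted p of the 9 genes (log2 fold change 0.23 ± 0.05, edgeR adjusted p = 0.00716). Dhh moved from 109, 106 and 113 RPKM to 117, 129 and 124, with no overlap with these controls (0.19 ± 0.05, edgeR adjusted p = 0.0364). Clu moved from 2207, 2479 and 2172 to 2582, 2872 and 2799 RPKM, likewise with no overlap (0.28 ± 0.06, edgeR adjusted p = 0.0158). Amh, at 257, 225 and 233 RPKM in the controls and 249.8, 287 and 299.7 in Morc1 tg/tg, passed the test only narrowly (0.24 ± 0.07, edgeR adjusted p = 0.0487). Morc1 tg/tg replicate 1 lay below the Morc1 +/+ control for Amh. Inha, the partner of Inhbb in inhibin B, was at 386 to 448 in controls and 393 to 490 in mutants (0.08 ± 0.08, edgeR adjusted p = 0.510).

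In 5 of the 9 genes (Sox9, Fshr, Dhh, Inhbb and Clu) every mutant lay above each of the 3 controls tested, as did 15.2% of all genes tested. The preliminary controls, which stood outside the test, lay below every mutant for Fshr (18.6 and 19.0 RPKM) and, narrowly, Inhbb (96.3 and 91.6). For the other 3 genes they reached into the mutants, with Sox9 at 60.2, Dhh at 119.8 and Clu at 2622 RPKM. Added to the controls with a batch term, which takes their level out of the contrast, they left the same 5 genes called. The count of called genes rested on few libraries. It was 1, Inhbb, without Morc1 tg/tg replicate 2 and also without replicate 3. It was 2, Fshr and Inhbb, without Morc1 tg/+ replicate 3, and 3, Amh, Inhbb and Clu, without the Morc1 +/+ library. Without Morc1 tg/+ replicate 2 it was 4, Fshr, Inhbb, Clu and also Sox9 (0.21 ± 0.05, edgeR adjusted p = 0.0270). It stayed at 5 without Morc1 tg/tg replicate 1, the 1 fit of the 6 in which Dhh was called. Inhbb was called in every one of the 6 fits that left out a library.

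At P14.5 all 9 genes were higher in Morc1 tg/tg than in Morc1 tg/+ testis, by 1.28 to 2.06 times, where 14.8% of 15283 genes tested were called higher. Scaled on other Sertoli genes, only Sox9 stayed called, and Wt1 and Fshr were at 0.01 each. Of 10 germ cell genes 7 were lower in the same mutants, and their part in these values was not tested. The log2 fold changes had a median of 0.47 over the 9 genes and of 0.01 over all genes tested. In 7 of the 9 genes no mutant overlapped a control, beside 21.0% of all genes with every mutant above every control. Amh and Inhbb were the exceptions.

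Sox9 stood at 31.7, 32.1 and 30.3 RPKM in the controls and at 44.1, 50.7 and 42.2 in Morc1 tg/tg. The mutant libraries all stood well above the highest control, and the log2 fold change of 0.55 ± 0.08 had the smallest adjusted p of the 9 genes (edgeR adjusted p = 0.000872). Gata4 went from 40.7, 44.9 and 38.0 to 53.2, 57.8 and 60.3 RPKM (0.48 ± 0.07, edgeR adjusted p = 0.00151). Wt1 went from 65.3, 71.1 and 65.3 to 77.4, 90.6 and 90.5 RPKM (0.37 ± 0.08, edgeR adjusted p = 0.00703). All 3 transcription factor genes therefore separated the genotypes at this age.

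Fshr measured 11.1, 11.0 and 12.3 RPKM in the controls and 14.0, 14.48 and 15.7 in the mutants, without overlap (0.37 ± 0.08, edgeR adjusted p = 0.0104).

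Amh had the largest fold change and the largest spread. Its controls measured 45.2, 83.3 and 51.7 RPKM and its mutants 75.7, 134 and 161. Morc1 tg/tg replicate 1 fell within the range of the controls, and the log2 fold change was 1.05 ± 0.29 (edgeR adjusted p = 0.0218). Inhbb showed the same overlap by that library, with 45.0, 58.8 and 48.4 RPKM in controls and 57.4, 73.0 and 75.9 in mutants (0.45 ± 0.13, edgeR adjusted p = 0.0239). Both lost their call without Morc1 tg/+ replicate 1 or 3 or without Morc1 tg/tg replicate 2 or 3, which left 7 of 9 genes called.

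Dhh rose from 50.7, 60.3 and 51.8 to 66.0, 83.3 and 87.5 RPKM (0.55 ± 0.11, edgeR adjusted p = 0.00608). Inha rose from 367, 322 and 357 to 476, 489.9 and 447 RPKM (0.44 ± 0.07, edgeR adjusted p = 0.0020). Clu rose from 2335, 2647 and 2426 to 3094, 3895 and 3213 RPKM (0.47 ± 0.10, edgeR adjusted p = 0.00787). In each of these genes the lowest mutant lay above the highest control.

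In Dnmt3l-/- testis at P10.5, 8 of the 9 genes, all but Sox9, were higher than in the 6 controls, by 1.21 to 2.08 times, where 24.9% of 15665 genes tested were called higher. Scaled on other Sertoli genes, Wt1 and Clu turned to -0.18 and -0.12 and Sox9 to -0.33, where the median of all genes was -0.52. Without that scaling the median log2 fold change was 0.71 over the 9 genes and -0.00092 over all genes tested. Amh, Wt1, Fshr, Dhh, Inhbb and Inha, 6 of 9 genes, had every mutant above every control, beside 16.9% of all genes tested.

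Amh was at 147, 215 and 252 RPKM (lowest, median and highest of 6 controls) and at 422, 457 and 412 in the 3 Dnmt3l-/- libraries. All mutants lay far above the highest control, and the log2 fold change was 1.10 ± 0.12 (edgeR adjusted p = 1.78e-05). Dhh was at 74.4, 87.9 and 92.8 in the controls and at 152, 154 and 145 in the mutants, the smallest adjusted p of the 9 genes (0.84 ± 0.07, edgeR adjusted p = 1.72e-06). Inha, at 346, 415 and 467 in the controls, was at 705, 724 and 671 in the mutants (0.81 ± 0.09, edgeR adjusted p = 1.66e-05). Both inhibin B chains moved this way, as Inhbb was at 56.9, 65.7 and 71.4 in the controls and 94.0, 103 and 95.4 RPKM in the mutants (0.63 ± 0.07, edgeR adjusted p = 1.58e-05).

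Fshr was at 13.3, 14.8 and 16.46 RPKM in the controls and 25.5, 23.0 and 22.3 in Dnmt3l-/- testis (0.71 ± 0.08, edgeR adjusted p = 2.02e-05). Scaled on other Sertoli genes, Fshr (0.20 ± 0.10) and Inhbb (0.12 ± 0.08) were no longer called, and Inha still was.

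The transcription factors behaved less evenly. Gata4 was at 82.9, 90.6 and 129 RPKM in the controls and at 178, 175 and 129 in the mutants (0.78 ± 0.14, edgeR adjusted p = 0.000712). Dnmt3l-/- replicate 3 lay just below the highest control, heterozygous replicate 3, and the other mutants were far above it. Wt1 was at 80.6, 84.6 and 91.4 in the controls and 96.7, 118 and 97.7 in the mutants (0.33 ± 0.07, edgeR adjusted p = 0.00188). Sox9, at 38.6, 44.1 and 49.7 in the controls and 44.4, 47.8 and 54.5 in the mutants, overlapped and was not called (0.18 ± 0.08, edgeR adjusted p = 0.0812). Sox9 passed without wild type replicate 1 (edgeR adjusted p = 0.0399), with RLE size factors (edgeR adjusted p = 0.0442), against heterozygous controls alone (edgeR adjusted p = 0.0365) and with DESeq2 (adjusted p = 0.0354). Clu, at 1769, 2139 and 2521 in the controls and 2758, 2488 and 3014 in the mutants, was called despite overlapping groups (0.38 ± 0.11, edgeR adjusted p = 0.0085).

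RNA of epididymis genes was present in some controls of this line. The summed level of 6 epididymis genes was 34.5, 4.77 and 8.63 RPKM in wild type replicates 1 to 3 and 24.6 in heterozygous replicate 2, against 0.0534 and 0.0510 in heterozygous replicates 1 and 3 and at most 0.251 in the mutants. Against heterozygous replicates 1 and 3 alone, a choice made after seeing the data, 8 of the 9 genes were again higher, where 2292 of 15703 genes tested were called higher. Amh then had a log2 fold change of 1.27, Sox9 passed (0.32, edgeR adjusted p = 0.0412) and Gata4 missed the threshold (0.63, edgeR adjusted p = 0.0515).

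The control genotypes of the Dnmt3l line were compared with each other. None of the 9 genes was called between heterozygous and wild type testis with edgeR, and none had an unadjusted p under 0.05; 1 of 15370 genes, or 0.00651%, was called in either direction and 287 had an unadjusted p under 0.05. The log2 fold changes lay between -0.18 (Amh) and 0.07 (Gata4), and all 9 overlapped.

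**Figure D2:**
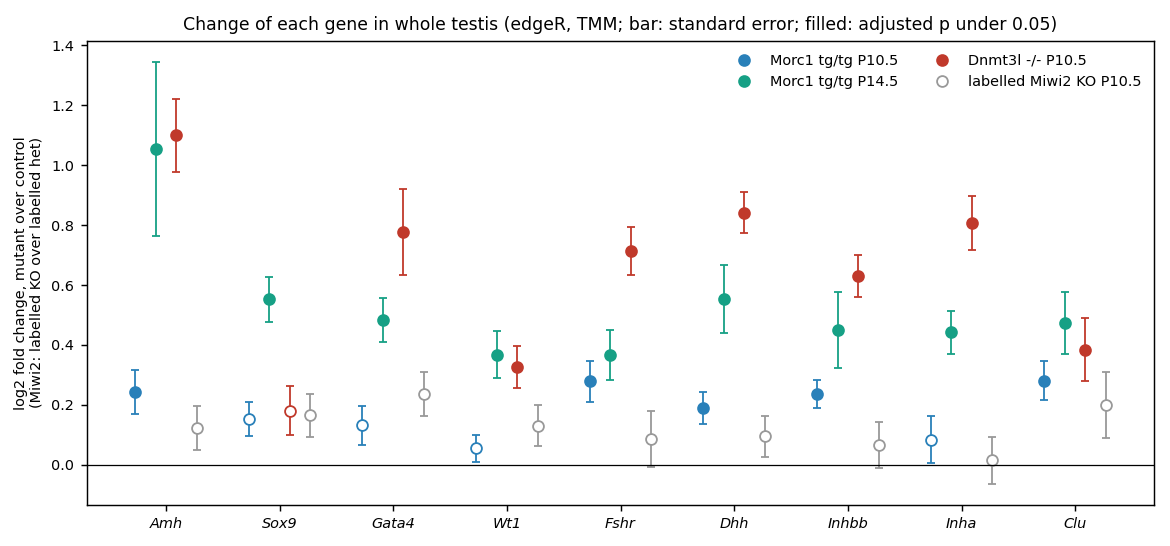
Log2 fold change (y axis; edgeR with TMM scaling, bars are standard errors) of each gene in 3 comparisons of mutant with control testis and between the libraries labelled Miwi2 KO and het, filled where the adjusted p was under 0.05. All points lie above 0, those of the Miwi2 line only in the order of its labels, which Piwil4 went against, and those of Dnmt3l-/- and of Morc1 tg/tg at P14.5 highest, with Amh at 1.10 and 1.05; scaled on other Sertoli genes, Sox9, Gata4, Wt1 and Inha fell below 0 in Morc1 tg/tg at P10.5 and Sox9, Wt1 and Clu in Dnmt3l-/-.

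In the Miwi2 line none of the 9 genes was called between the libraries labelled Miwi2 KO and Miwi2 het. Scaling on other Sertoli genes and a fit blocked on replicate number each changed that count, as given further on. With edgeR, 1.23% of 15997 genes were called in either direction (3229 at an unadjusted p under 0.05), and DESeq2, which called 378 genes, called none of the 9 either. Sox9 (unadjusted p = 0.0470) and Gata4 (0.00864) were the members with an unadjusted p under 0.05 in the edgeR fit. Gata4 was at 48.9 and 46.3 RPKM in the libraries labelled het and 59.2 and 54.3 in those labelled KO (0.24 ± 0.07, edgeR adjusted p = 0.123). Amh was at 96.7 and 91.7 in the libraries labelled het and 108 and 99.9 in those labelled KO (0.12 ± 0.07). In 6 of the 9 genes (Amh, Sox9, Gata4, Wt1, Dhh and Clu) both libraries labelled KO lay above both labelled het, a pattern shared by 29.7% of all genes tested with 2 libraries a group. The tissue around the testis differed too: 4 fat genes summed to 24.8 to 28.0 RPKM in the libraries labelled het and 5.93 to 6.07 in those labelled KO, and the 6 epididymis genes to 2.58 to 2.97 and 10.2 to 10.4. The part of that tissue in these values was not tested.

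The change with age was read from the Morc1 line controls, by setting Morc1 tg/+ testis at P14.5 against the P10.5 controls. Age may coincide with a library batch, which the labels of these libraries do not name, so age and batch cannot be told apart. All but Clu fell: 8 of the 9 genes were called lower and had every P14.5 library below every P10.5 library. Among the 15395 genes tested 29.2% were called lower, and 32.2% had every P14.5 library below every P10.5 library. Amh fell most, from 225 to 257 RPKM at P10.5 to 45.2 to 83.3 at P14.5, a log2 fold change of -1.99 ± 0.18 (edgeR adjusted p = 1.48e-05).

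Gata4 fell by 1.31 ± 0.07 on the log2 scale (edgeR adjusted p = 1.08e-06), Dhh by 1.02 ± 0.07 and Inhbb by 0.76 ± 0.09. Fshr (-0.70 ± 0.07), Sox9 (-0.69 ± 0.06) and Wt1 (-0.43 ± 0.05) fell less. Inha fell least, from 386 to 448 RPKM to 322 to 367 (-0.27 ± 0.07, edgeR adjusted p = 0.00569). Clu, by contrast, measured 2172 to 2479 RPKM at P10.5 and 2335 to 2647 at P14.5 (0.10 ± 0.07, edgeR adjusted p = 0.223), and it passed, as higher, without Morc1 tg/+ replicate 2 of P10.5. The controls at P14.5 held no Morc1 +/+ library.

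Germ cell genes rose over the same days. The summed level of 10 germ cell genes was 569 to 575 RPKM in the P10.5 controls and 1281 to 1581 at P14.5, with 8 of the 10 called higher and none lower, where 29.6% of all genes were called higher. Of the other somatic markers, 3 of 5 peritubular and 2 of 5 endothelial genes were lower, 3 of 5 macrophage genes were higher, and of 7 Leydig cell genes 2 were higher, led by Hsd3b6 (4.78 ± 0.39), and 2 lower. Of all genes 29.6% were called higher and 29.2% lower, which the Leydig counts lay close to. The part of these cells in the age change was not tested. Scaled on the reads of other Sertoli genes instead of all genes, the median of all genes shifted to 0.19 and the members' changes ran from -1.82 to 0.29. Inha then missed the threshold (-0.09) and Clu was called higher (0.29).

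Differences between the effects were tested as interaction terms. The Morc1 effect was more positive at P14.5 than at P10.5 in all 9 genes (Fshr, -0.10, and Clu, -0.01, turned negative when scaled on other Sertoli genes), but it passed the test only for Sox9 (0.39 ± 0.10 on the log2 scale, edgeR adjusted p = 0.0248), where 1.49% of 15657 genes tested were called with a more positive effect. Amh differed by 0.80 ± 0.33 (edgeR adjusted p = 0.162), Gata4 by 0.34 ± 0.11 (0.0692) and Fshr by 0.08 ± 0.11 (0.735). Sox9 was not called without Morc1 tg/+ replicate 2 of P10.5, nor without Morc1 tg/tg replicate 2 or 3 of P10.5. Without Morc1 tg/+ replicate 2 of P14.5 the count was 4 (Amh, Sox9, Gata4 and Wt1), and without Morc1 tg/tg replicate 1 of P14.5 it was 5 (Amh, Sox9, Gata4, Wt1 and Dhh).

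The Dnmt3l effect was larger than the Morc1 effect at P10.5 for 7 of the 9 genes (Wt1 turned to -0.08 when scaled on other Sertoli genes), where 8.14% of 15902 genes tested were called in that direction. The differences on the log2 scale were 0.91 ± 0.17 for Amh (edgeR adjusted p = 0.00217), 0.77 ± 0.14 for Inha (0.00110), 0.70 ± 0.09 for Dhh (0.000130) and 0.70 ± 0.20 for Gata4 (0.0258). Fshr differed by 0.49 ± 0.12, Inhbb by 0.45 ± 0.09 and Wt1 by 0.32 ± 0.09. Sox9 (0.08 ± 0.11) and Clu (0.15 ± 0.14) did not pass. The Morc1 mice were FVB/N and the background of the Dnmt3l mice was not given in the sources used here, so background and deleted gene cannot be told apart. Against the Dnmt3l controls in which the epididymis genes were near 0, a choice made after seeing the data, 4 genes passed (Amh, Dhh, Inhbb and Inha). Of 15778 genes tested in that fit, 682 were called with a more positive Dnmt3l effect. The calls of Gata4 and Wt1 were both lost without Morc1 tg/tg replicate 1 or 3 or without Dnmt3l-/- replicate 2, those of Gata4 and Fshr without Dnmt3l-/- replicate 1, that of Gata4 without the Morc1 +/+ library or Morc1 tg/+ replicate 3, and that of Wt1 without Morc1 tg/+ replicate 2.

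Germ cell RNA moved opposite to the Sertoli cell genes in the Morc1 and Dnmt3l lines. The 10 germ cell genes summed to 569 to 575 RPKM in the Morc1 P10.5 controls and 352 to 402 in Morc1 tg/tg, to 1281 to 1581 and 597 to 724 at P14.5, and to 752 to 937 and 248 to 321 in the Dnmt3l line. Of these 10, 9, 7 and 10 were called lower and none higher, where 9.26%, 20.1% and 29.0% of all genes tested were called lower. Tex101, a germ cell surface protein gene, had log2 fold changes of -1.27 ± 0.08, -2.30 ± 0.14 and -1.98 ± 0.23 in these comparisons. In the libraries labelled Miwi2 KO the sum was 812 to 839, against 832 to 846 in those labelled het, and none was called. On scaling to other Sertoli genes the germ cell genes stayed lower in the Morc1 and Dnmt3l lines, with 9, 8 and 10 of 10 called. Under that scaling 4698 of 15165, 7784 of 15283 and 10861 of 15665 genes tested were called lower.

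This scaling used 29 Sertoli cell genes other than the 9, among them Cldn11, Trf, Rhox8 and Hsd17b1, and gives levels relative to Sertoli cell RNA. It shifted the median of all genes to -0.16 in Morc1 tg/tg at P10.5, -0.35 at P14.5 and -0.52 in Dnmt3l-/-. At P10.5 in the Morc1 line none of the 9 genes was called on it, their changes lying between -0.11 (Wt1) and 0.12 (Clu), where 1.35% of genes were called higher and, before scaling, all 9 values were positive. At P14.5, where 0.883% were called higher, Sox9 (0.19 ± 0.07) was called and Amh, at 0.69 ± 0.26, was not (edgeR adjusted p = 0.0522). In Dnmt3l-/- testis, where 1.72% were called higher, Amh (0.59 ± 0.11), Dhh (0.33 ± 0.08) and Inha (0.30 ± 0.08) were called higher and Sox9 lower (-0.33 ± 0.08, edgeR adjusted p = 0.00207). The value of Sox9 stood beside a median of -0.52 over all genes, of which 10861 of 15665 were called lower. Genes called higher and lower numbered 922 and 1404 under the usual scaling and 205 and 4698 under this one at P10.5, 2257 and 3066 against 135 and 7784 at P14.5, and 3900 and 4539 against 270 and 10861 in the Dnmt3l line.

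For the other contrasts the split of higher and lower calls also moved with this scaling. It was 116 and 81 genes under TMM against 165 and 20 in the Miwi2 line, where the median of all genes shifted to 0.12 and Clu (0.30, edgeR adjusted p = 0.0498) became the only one of the 9 called. It was 4564 and 4494 against 6789 and 2607 with age, 233 and 1054 against 40 and 2058 for the difference between ages, and 1295 and 1502 against 98 and 6872 for the difference between lines. In the difference between ages Sox9 was no longer called (0.20). In the difference between lines Amh (0.52), Dhh and Inha stayed higher and Sox9 was lower (-0.32). The median of all genes was -0.37 in that contrast.

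**Figure D3:**
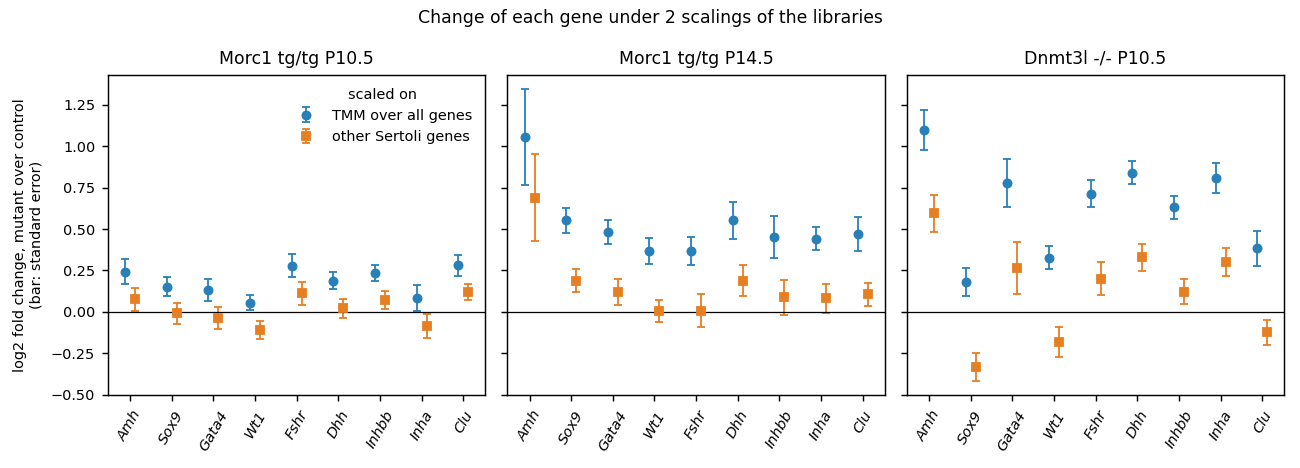
Log2 fold change (y axis, bars are standard errors) of each gene in 3 comparisons under TMM scaling over all genes (blue circles) and under scaling on 29 other Sertoli genes (orange squares). Every value is lower under the Sertoli scaling. Amh keeps the highest value at P14.5 (0.69) and in Dnmt3l-/- (0.59), and the sign changes for Sox9, Gata4, Wt1 and Inha in Morc1 tg/tg at P10.5 and for Sox9 (from 0.18 to -0.33), Wt1 and Clu in Dnmt3l-/-.

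The other Sertoli cell genes, on which that scaling rests, were counted under the usual scaling. Of 29 tested, 9 were higher and none lower in Morc1 tg/tg at P10.5, 19 and none at P14.5, and 18 higher and 1 lower in Dnmt3l-/-, with medians of 0.20, 0.39 and 0.43. Of all genes 6.08%, 14.8% and 24.9% were called higher. None was called in the Miwi2 line. Hsd17b1, a steroid dehydrogenase gene, rose by 1.20 ± 0.24 at P14.5 and 1.93 ± 0.15 in Dnmt3l-/-, more than any of the 9 genes. Serpina5 (0.52 ± 0.09), a protease inhibitor gene, and Slc38a5 (0.38 ± 0.07), an amino acid transporter gene, led at P10.5, Tesc (0.80 ± 0.14) was also higher at P14.5 and Ptgds (1.10 ± 0.24), a prostaglandin synthase gene, in Dnmt3l-/-. The beta-defensin gene Defb36 was lower in Dnmt3l-/- (-0.32 ± 0.12). With age, 13 of the 29 rose and 14 fell in the controls, where 29.6% of all genes rose and 29.2% fell: Krt18 (-3.16 ± 0.37), a keratin of immature Sertoli cells, and Hsd17b1 (-2.80 ± 0.18) fell, and Drd4 (1.52 ± 0.14) and Gata1 (1.24 ± 0.07), a GATA factor of maturing Sertoli cells, rose. Between ages the Morc1 effect was more positive for 2, Hsd17b1 (0.87 ± 0.24) and Mro (0.40 ± 0.11), and between lines the Dnmt3l effect for 9, led by Hsd17b1 (1.67 ± 0.21) and Rhox8 (0.75 ± 0.12).

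Partners of the secreted products, and of FSH and hedgehog signalling, were counted as a list of 20 genes tested. In Morc1 tg/tg at P10.5, 1 was higher, Tgfbr3 (0.33 ± 0.06), the inhibin co-receptor betaglycan, and 1 lower, Acvr2b (-0.42 ± 0.10), an activin receptor, beside 6.08% and 9.26% of all genes. At P14.5, 8 were higher and 1 lower, beside 14.8% and 20.1%: Fst (0.45 ± 0.14), which binds activin, and Smo (0.40 ± 0.09), which relays hedgehog signals, rose, and Crem (-1.24 ± 0.22), a cAMP-responsive regulator that germ cells also express, fell. In Dnmt3l-/-, 12 were higher and 2 lower, beside 24.9% and 29.0% of all genes. Inhba, the other activin chain (0.86 ± 0.13), and Tgfbr3 (0.67 ± 0.15) rose, and Acvr2b (-1.52 ± 0.08) and Smad1 (-0.31 ± 0.09) fell. None was called in the Miwi2 line. The medians of the 20 were 0.06, 0.22, 0.27 and 0.04. Scaled on other Sertoli genes they turned to -0.11, -0.14, -0.24 and 0.14, beside -0.16, -0.35, -0.52 and 0.12 over all genes. Of the 20, 0 were then higher and 3, 6, 9 and 0 lower. Over all genes tested, 4698 of 15165, 7784 of 15283, 10861 of 15665 and 20 of 15997 were then lower.

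With age 4 of these 20 rose and 14 fell in the controls (median -0.45), beside 29.6% and 29.2% of all genes. The hedgehog antagonist gene Hhip (-2.15 ± 0.15) and Inhba (-2.13 ± 0.21) fell with Dhh and Inhbb, and Crem (1.31 ± 0.21) and Fstl3 (0.47 ± 0.10) rose. The Morc1 effect differed between ages for Crem (-1.32 ± 0.26) and for none upward, where 6.73% of all genes had a more negative effect at P14.5. Between lines 9 had a more positive Dnmt3l effect, among them Inhba (0.72 ± 0.22) and Hhip (0.66 ± 0.21), and Acvr2b a more negative one (-1.05 ± 0.13), beside 8.14% and 9.45% of all genes.

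Partners of SOX9, GATA4 and WT1 were counted as 9 tested genes. Six4, a homeobox factor, rose by 1.01 ± 0.15 and 0.98 ± 0.16 in Morc1 tg/tg at the 2 ages. Zfpm2, the GATA4 cofactor FOG2, rose in Dnmt3l-/- by 0.79 ± 0.18. Cbx2 and Dmrt1, both also made in germ cells, fell by 0.31 ± 0.06 and 0.23 ± 0.05 in Morc1 tg/tg at P10.5 and by 1.26 ± 0.06 and 0.45 ± 0.06 in Dnmt3l-/-. In all, 3 were higher and 2 lower at P10.5, 4 and none at P14.5, and 5 and 2 in Dnmt3l-/-, where all genes gave 6.08% and 9.26%, 14.8% and 20.1%, and 24.9% and 29.0%. The medians were 0.12, 0.35 and 0.14 and turned to -0.04, -0.01 and -0.37 when scaled on other Sertoli genes. The medians of all genes were then -0.16, -0.35 and -0.52. With age 6 fell, led by Lhx9 (-1.51 ± 0.12) and Zfpm2 (-1.30 ± 0.09), and none rose, beside 29.2% and 29.6% of all genes. Nr5a1 stood in this list and in the list of other Sertoli genes. Between ages 1 differed, Dmrt1 (0.39 ± 0.10), and between lines Lhx9 (0.67 ± 0.17) and Nr5a1 (0.43 ± 0.10) had a more positive and Six4 (-1.30 ± 0.25) and Cbx2 (-0.91 ± 0.09) a more negative Dnmt3l effect.

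Genes that mark the supporting cells of the ovary were low: 6 of them summed to 3.08 to 9.52 RPKM in whole testis, and 4 were tested. In each Morc1 and Dnmt3l comparison, and in the libraries labelled Miwi2 KO, 1 of the 4 was higher and none lower under the usual scaling. Of all genes 6.08% (P10.5) and 14.8% (P14.5) were higher in Morc1 tg/tg, 24.9% in Dnmt3l-/- and 116 of 15997 in the Miwi2 line. The share of 1 in 4 was close to that of all genes in Dnmt3l-/-. Scaled on other Sertoli genes none was called in Morc1 tg/tg at either age. In Dnmt3l-/- 1 was then higher and 2 lower, beside 270 and 10861 of 15665 genes. The gene higher under the usual scaling was Bmp2 in Morc1 tg/tg at P10.5 (0.54 ± 0.16) and in the libraries labelled Miwi2 KO (0.99 ± 0.14), Rspo1 in Morc1 tg/tg at P14.5 (0.77 ± 0.20) and the estrogen receptor gene Esr2 in Dnmt3l-/- (1.65 ± 0.12). With age 3 of the 4 fell, beside 29.2% of all genes, among them Esr2 (-1.56 ± 0.14) and Wnt4 (-0.54 ± 0.17), and between lines Esr2 differed (1.43 ± 0.17).

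Markers of the other somatic cells were counted as well. Their median log2 fold changes in Morc1 tg/tg at P10.5 were 0.43 for Leydig cells, 0.43 for macrophages, 0.25 for endothelial cells, -0.04 for peritubular cells, 0.05 for blood and 0.83 for the 2 fat genes tested, beside 0.19 for the 9 Sertoli cell genes. Hsd3b6 (1.53 ± 0.29), a steroid dehydrogenase gene of Leydig cells, and the macrophage gene Adgre1 (0.84 ± 0.20) had larger fold changes there than any of the 9. At P14.5 the medians of Leydig, macrophage, endothelial and peritubular genes were -0.03, 0.26, 0.13 and -0.23, and in Dnmt3l-/- 0.24, 0.30, 0.40 and 0.135. Of 7 Leydig cell genes, 2 were higher in Morc1 tg/tg at P10.5, none at P14.5 and 1 in Dnmt3l-/-, and of 5 endothelial genes 2, 0 and 3, beside 6.08%, 14.8% and 24.9% of all genes. Of 5 peritubular genes 1 was higher in Morc1 tg/tg at P10.5 and none was called at P14.5. In Dnmt3l-/- 1 was higher and 1 lower, beside 24.9% and 29.0% of all genes. The Leydig and peritubular counts in Dnmt3l-/- did not exceed those shares. Of 5 macrophage genes 2, 0 and 2 were higher, of 3 blood genes none, and of 2 fat genes tested 1 at P14.5. In the libraries labelled Miwi2 KO the Leydig cell gene Star was lower (-0.44 ± 0.07), though not when scaled on other Sertoli genes, and the hemoglobin gene Hba-a1, whose count is uncertain because it has a near-identical copy, was higher (0.57 ± 0.09). Scaled on other Sertoli genes, the Leydig, endothelial and macrophage genes numbered 0 higher and 2, 1 and 0 lower in Dnmt3l-/-, and the endothelial genes none in Morc1 tg/tg at P10.5, where 2 Leydig and 2 macrophage genes were higher and 2 peritubular genes lower. Under that scaling 270 of 15665 genes tested were called higher and 10861 lower in Dnmt3l-/-. In Morc1 tg/tg at P10.5 it was 205 and 4698 of 15165. Summed Leydig cell levels were 226 to 245 RPKM in the Morc1 P10.5 controls and 257 to 350 in Morc1 tg/tg, and 135 to 266 and 113 to 226 at P14.5. In the Dnmt3l line they were 157 to 284 and 246 to 268. The part of these cells in the Sertoli cell values was not tested.

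Sorted germ cells served as the check that the 9 genes are somatic. Cells of both Morc1 genotypes, tg/tg and tg/+, were sorted: those of E16.5, E18.5 and P2.5 by the GFP of an Oct4-IRES-eGfp reporter, which follows Oct4 expression, and at P10.5 as cells of low side scatter, high EPCAM and no MHCI. Their libraries held 2413679 to 14918478 reads on genes (median 7542692) and the 9 genes took 0.0122% to 0.0473% of them. They were made from total RNA depleted of ribosomal RNA with the Ovation FFPE kit, so cell type, kit and, up to P2.5, genetic background cannot be told apart in levels set against whole testis, and no whole testis of an embryonic age was sequenced this way.

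Relative to the mean of the 3 Morc1 P10.5 testis controls, the 7 sorted P10.5 libraries held 1.13% of Amh, 1.37% of Inhbb, 1.44% of Dhh, 1.73% of Inha, 2.08% of Fshr, 2.11% of Gata4, 2.15% of Clu, 6.25% of Wt1 and 11.0% of Sox9. Amh was at 3.26, 1.13, 5.24 and 3.31 RPKM in Morc1 tg/+ and at 1.56, 2.51 and 1.84 in Morc1 tg/tg cells. Sox9 stood out at every stage. It was at 6.16 to 9.46 RPKM at E16.5, 15.4% of the testis mean. At E18.5 it was highest, at 17.8 and 16.3 in Morc1 tg/+ and 19.1 and 13.9 in Morc1 tg/tg (33.4% of the testis mean), and at P2.5 it was at 2.64 to 6.92 (7.71%).

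Averaged over the libraries of a stage, the other 8 genes lay between 0.363% and 4.06% of the testis mean at E16.5 and E18.5. At P2.5 these averages lay between 0.786% and 4.31%. Single libraries went higher, with Wt1 up to 5.43% at E18.5 and Fshr up to 13.0% at P2.5. Reads of some were absent: Amh had 0 reads in Morc1 tg/+ replicate 2 and Morc1 tg/tg replicate 1 of E18.5, which allows up to 0.234 and 0.396 RPKM (3 reads). Fshr had 0 reads in 6 libraries, Inhbb in Morc1 tg/tg replicate 1 of P2.5 (up to 0.167 RPKM) and Inha in Morc1 tg/+ replicate 2 of E18.5 (up to 0.264 RPKM). These limits cover counting error only.

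**Figure D4:**
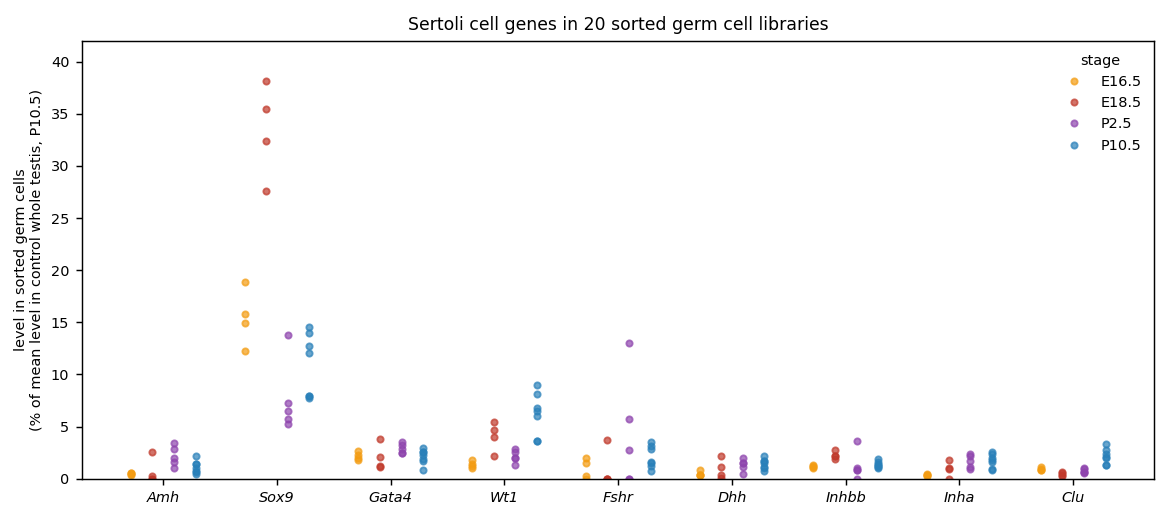
Level of each gene in 20 sorted germ cell libraries (points, coloured by stage) as a percentage of its mean in the 3 control whole testes of the Morc1 line at P10.5. Sox9 reaches 38.1% at E18.5 while the other genes stay at or below 13.0%.

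Between genotypes, none of the 9 genes was called in sorted cells at E16.5 (all 9 tested), E18.5 (7 tested, not Amh or Fshr) or P2.5 (all 9 tested), where edgeR called 0.421%, 0.0416% and 0.0486% of all genes in either direction. Clu at P2.5, at 12.3 to 15.7 RPKM in Morc1 tg/+ and 24.3 and 22.1 in Morc1 tg/tg, was the only one with an unadjusted p under 0.05 (0.0409), and DESeq2 called none at these ages. Inha at E18.5 passed without Morc1 tg/+ replicate 1, in a fit that left 1 control library, with 0 Inha reads, and took the spread from the Morc1 tg/tg libraries. At P10.5, 2 of the 9, Wt1 and Clu, were lower in Morc1 tg/tg cells, where 5.79% of 14019 genes tested were called lower. Wt1 was at 5.44, 6.12, 8.16 and 7.36 RPKM in Morc1 tg/+ and 3.30, 5.88 and 3.31 in Morc1 tg/tg cells (-0.79 ± 0.18, edgeR adjusted p = 0.00366). Clu was at 47.3, 44.6, 76.5 and 53.9 in Morc1 tg/+ and 29.6, 63.0 and 29.6 in Morc1 tg/tg cells (-0.54 ± 0.17, edgeR adjusted p = 0.0420). Morc1 tg/tg replicate 2 lay within the controls for both genes.

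All 9 fold changes were below 0 in these P10.5 cells, although Sox9, Dhh and Inhbb turned above 0 when scaled on other Sertoli genes. The 29 other Sertoli genes summed to 191 to 268 RPKM in sorted Morc1 tg/+ and 120 to 200 in Morc1 tg/tg cells, with 8 of 26 tested lower and none higher. Scaled on them, none of the 9 was called. Clu lost its call without any of Morc1 tg/+ replicates 3 and 4 and Morc1 tg/tg replicates 1 and 3, and Wt1 kept it in each of the 7 fits. The count was 4 without Morc1 tg/+ replicate 2 (with Amh and Sox9) and without Morc1 tg/tg replicate 2 (with Sox9 and Inha).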

How the data were processed

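Whole testis (27 libraries) and sorted germ cells (20) of mice were sequenced. Per the study's methods, the authors trimmed reads to 50 bp, removed ribosomal reads, kept reads mapping once to mm9 with at most 2 mismatches and counted them per gene with HTSeq. The deposited values are read counts and RPKM per gene; which aligner served the gene counts was not stated in the sources used here. Levels use the deposited RPKM, and tests use the deposited counts. Small RNA tables were not used.

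Groups followed the sample labels. The main test was edgeR 4.0.16 (R 4.3.3): TMM scaling, filterByExpr, quasi-likelihood fit of the compared groups only, the Benjamini-Hochberg method across every gene tested, an adjusted p under 0.05. Interaction terms tested differences between effects. Standard errors of edgeR fold changes, in the text and figures, were worked back from the fold change and the F statistic of its test. DESeq2 1.42.0, RLE size factors, scaling on 29 other Sertoli genes, no filter, a replicate block, other control sets and leaving out each library were alternatives. The script was tested on simulated data. P-values measure the spread between mice of a group. The closest 2 libraries of a group still differed by a chi-square per gene of 4.52, above sampling noise.

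The members and gene lists were chosen with earlier results of these data known. All 9 members and the 3 targeted genes were named in every comparison; from each other list at most the 2 called genes with the largest rise and the 2 with the largest fall were named, and for the 3 members that varied most over groups the 2 genes nearest in pattern. Rhox5 and Pde4d were listed but not matched. HTSeq ran with its default settings, strand not being named, and the TruSeq v2 kit does not mark strand, so in whole testis reads of overlapping antisense genes cannot be told apart. A gene counted in the lists is not reported here.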

Additional observations from a re-analysis of the deposited data

Results flagged for a closer look

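Among the 6 Dnmt3l line controls, Dhh in heterozygous replicate 1 (74.4 RPKM) lay apart from the next library (86.9), the gap being 0.678 of the range. Of 18 groups of a size that could be tested, this was the 1 that stood out, and chance gives about 1 in 20.

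The Morc1 effect on Sox9 was larger at P14.5 than at P10.5, with a log2 difference of 0.39 (edgeR adjusted p = 0.0248); it was 0.20 and not called when scaled on other Sertoli genes.

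The Dnmt3l effect exceeded the P10.5 Morc1 effect by log2 differences of 0.91 for Amh, 0.77 for Inha, 0.70 for Dhh, 0.70 for Gata4, 0.49 for Fshr, 0.45 for Inhbb and 0.32 for Wt1 (edgeR adjusted p between 0.000130 and 0.0258). Amh, Dhh and Inha kept their call when scaled on other Sertoli genes. Amh lies near Dnmt3l on chromosome 10, and the part of linked sequence in its value was not tested.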

How the results depend on the processing

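Scaled on other Sertoli genes, the number of the 9 genes called became 0 for Morc1 at P10.5, 1 at P14.5, 4 for Dnmt3l, 1 for Miwi2, 0 for the difference between ages, 4 for that between lines and 0 in sorted cells at P10.5. This scaling reversed Sox9 (-0.010), Gata4 (-0.036), Wt1 (-0.11) and Inha (-0.085) for Morc1 at P10.5, Sox9 (-0.33), Wt1 (-0.18) and Clu (-0.12) for Dnmt3l, Wt1 (0.049) between Dnmt3l control genotypes, Fshr (-0.10) and Clu (-0.010) between ages, and Sox9 (-0.32), Wt1 (-0.075) and Clu (-0.24) between lines. With only Morc1 tg/+ controls 3 genes were called at P10.5, and against Dnmt3l controls without epididymis RNA 4 differed between lines. Between ages the count was 4 with DESeq2, 2 with RLE and 4 with no filter; in sorted P10.5 cells it was 1 with DESeq2 and 4 with no filter. Inha in the Miwi2 line became -0.0052 with no filter. The causes were not tested.

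Replicate numbers did not pair the libraries of the Morc1 and Dnmt3l lines (correlations of deviations -0.22 to -0.05 for Morc1 P10.5, -0.11 to 0.35 for P14.5, -0.43 to -0.02 for Dnmt3l, -0.37 to 0.27 between its control genotypes). In the Miwi2 line the correlation was 0.32. Its 2 pairs always share the same value, so they cannot decide whether replicate numbers pair its libraries. With the replicate block 2 genes were called for Morc1 at P10.5, 5 in the Miwi2 line, 9 at P14.5, 8 for Dnmt3l, 1 between ages and 5 between lines. No paired analysis was possible for control age because its libraries of different ages share no pairing.

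Where leaving out a library left 1 in a group, it was taken to vary like the other group. Leaving out a library gave 1 to 5 genes for Morc1 at P10.5, 7 to 9 at P14.5, 8 to 9 for Dnmt3l, 0 in the Miwi2 line and between Dnmt3l control genotypes, 8 to 9 with age, 0 to 5 between ages, 5 to 7 between lines, and 0, 0 to 1, 0 and 1 to 4 in sorted cells by age. Ranges that crossed 0 were, for Inha at P10.5, -0.0055 to 0.16, in the Miwi2 line Fshr -0.029 to 0.20, Inhbb -0.0021 to 0.12 and Inha -0.023 to 0.041, and between Dnmt3l controls Gata4 -0.18 to 0.19, Wt1 -0.038 to 0.038, Fshr -0.0097 to 0.14 and Clu -0.22 to 0.037. Of 442 fold changes under the other alternatives 373 kept direction and call, 37 lost and 18 gained a call, and 14 reversed; with a library left out it was 527, 41, 12 and 10 of 590.

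Genes called over the whole table were 2326 for Morc1 P10.5 against 4903 (Sertoli scaling), 1200 (block), 1576 (tg/+ controls), 922 and 1533 without Morc1 tg/tg replicate 3 or 2 and 1247 without tg/+ replicate 3. They were 5323 against 3517 for P14.5 without tg/+ replicate 3, 8439 against 5348 for Dnmt3l without epididymis RNA, 197 against 378 (DESeq2), 4503 (block) and 340 to 952 without a library for Miwi2, 1287 against 2098 (Sertoli) and 772 (without P14.5 tg/+ replicate 3) between ages, and 2797 against 6970 (Sertoli), 1689 (block), 1755 (without the Morc1 +/+ library), 1753 (without Morc1 tg/tg replicate 1) and 1817 (without Dnmt3l-/- replicate 2) between lines. Between Dnmt3l control genotypes they were 1 against 0 to 2. In sorted cells they were 70 against 180 (no filter), 174 (block), 206 (Sertoli) and 171 (without Morc1 tg/tg replicate 2) at E16.5, 6 against 296 (DESeq2), 83 (no filter), 46 (block) and 0 to 190 without a library at E18.5, 7 against 21, 27 and 30 likewise and 0 to 70 at P2.5, and 1712 against 3946 (Sertoli) at P10.5. Amh, Fshr, Inhbb and Inha held 0 reads in some sorted libraries, which gives an upper limit only.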

Other observations

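Amh, Gata4 and Inhbb varied most over the 12 whole testis groups, with SDs of the group means of 0.83, 0.58 and 0.50 on the log2(RPKM + 1) scale, and Wt1 least (0.22). Among 12557 genes with a mean RPKM of at least 1 over the 27 libraries, the genes whose centred group means lay nearest to those of Amh were Bcan and Sel1l3 (root mean square difference 0.15 and 0.16). Nedd9 and Frmd4a lay nearest to Gata4 (0.08 and 0.10) and Pdzd2 and Rhox8 to Inhbb (0.08 and 0.09). Rhox8 is itself one of the other Sertoli genes used for scaling. The groups share libraries' age, line and depth, and no test was made.

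In the Miwi2 line the fat genes Fabp4 and Adipoq were lower in the libraries labelled Miwi2 KO (log2 fold changes -4.17 ± 0.17 and -4.01 ± 0.29, edgeR adjusted p = 5e-07 and 3.22e-05), and the epididymis gene Crisp1 was higher by 1.91 ± 0.11 (edgeR adjusted p = 7.26e-06). In the Dnmt3l line Crisp1 and Adam7 were lower in Dnmt3l-/- (-9.82 ± 2.63 and -3.65 ± 1.33).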
